A study of Mus musculus with 12 samples.

Results

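Lysozymes and secreted antimicrobial proteins were followed through 10 genes: the lysozymes Lyz1 and Lyz2, the whey acidic protein (WAP) family members Slpi, Wfdc17 and Wfdc21, the acute-phase and siderophore-binding proteins Saa3 and Lcn2, and the granule proteins Ltf, Camp and Ngp. They were chosen by gene symbol, and all 10 were found among the 55291 symbols of the deposited table. RNA had been sequenced from alveolar macrophages, which patrol the air sacs, flow-sorted from lungs of female C57BL6/NJ mice aged 8 to 11 weeks. Of the mice, 6 had breathed filtered air and 6 had breathed 0.8 ppm ozone, both in daily exposures of 4 h over 4 consecutive days. Lungs were taken 3 days after the last one, and each mouse is 1 sample. The sort ran in 2 batches with 3 mice of each group in each. The study addresses pulmonary tolerance to ozone, and the comparison asks how these cells differ after repeated exposure.

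Secreted antimicrobial proteins act on microbes outside the cell or inside the phagosome. Lysozymes cut the peptidoglycan of bacterial walls, WAP proteins such as SLPI hold neutrophil proteases in check and can also act on bacteria, and lipocalin 2 and lactoferrin withhold iron. In the airspaces the alveolar macrophage is a major source of lysozyme, and airway epithelium and neutrophils release several of the others.

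Expression is given as batch-corrected, variance-stabilized values (log2 scale) relative to the filtered-air mean, which is 0 in every gene. The abundance of a gene was therefore not kept, and levels cannot be compared between genes. Differences on this scale are compressed where reads are few and then understate log2 fold changes. Relative depth, inferred from the size of 1 read, ran from 0.899 to 1.17 in filtered air and from 0.871 to 1.22 after ozone. RNA integrity numbers ran from 8.9 to 9.7 and from 9.2 to 9.7. The labelled cell type was set beside 19 alveolar macrophage markers, and all 19 had reads in all 12 mice. Reads in all 12 mice were also seen for 12 of 12 T and NK cell and 10 of 10 B cell markers. As abundance was not kept, the presence of reads cannot tell cell types apart. Of the 19 alveolar macrophage markers, Car4 (0.32) rose and Krt79 (-0.35) and Ear1 fell. Siglecf (-0.063), Itgax (0.051) and Marco (0.58, limma adjusted p = 0.108) were not called. In all, 15.8% of these markers were called, against 4.25% of all genes tested, and 12 of the 19 were lower in the mean after ozone, with a median of -0.055. Markers of other cells were read as well. Among the 14 lists of cell type markers, filtered-air mouse 4 was the highest filtered-air mouse in 11, and it had the lowest RNA integrity number. It was also the highest filtered-air mouse in 8 of the 8 tested antimicrobial genes, so results are given with and without it where it matters.

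The lysozyme genes lie side by side on chromosome 10, Lyz2 at 10:117277331-117282321 and Lyz1 at 10:117287797-117292868 (GRCm38, minus strand, GENCODE M21), 5475 bases apart. Both are protein-coding with 4 exons. Their coding sequences are shown because reads can be shared between them. They differ at 22 of 447 coding positions and are identical at 95.1%. Coding positions 1 to 300, counted from the start codon, hold 20 of these differences, marked by capitals.
Lyz1: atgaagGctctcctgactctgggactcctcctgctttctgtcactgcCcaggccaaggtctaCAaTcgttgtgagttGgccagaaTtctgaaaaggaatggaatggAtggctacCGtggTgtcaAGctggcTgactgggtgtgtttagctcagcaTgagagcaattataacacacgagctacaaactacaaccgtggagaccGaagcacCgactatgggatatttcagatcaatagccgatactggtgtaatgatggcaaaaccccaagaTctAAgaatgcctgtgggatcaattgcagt
Lyz2: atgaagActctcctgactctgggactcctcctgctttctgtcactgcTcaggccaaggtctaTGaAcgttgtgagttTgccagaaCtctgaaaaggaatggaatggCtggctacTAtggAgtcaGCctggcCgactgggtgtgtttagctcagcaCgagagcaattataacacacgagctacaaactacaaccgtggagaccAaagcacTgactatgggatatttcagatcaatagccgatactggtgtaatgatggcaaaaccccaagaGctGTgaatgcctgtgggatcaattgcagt
The longest run without a difference is 118 bases, which is longer than 50 bases, the stretch length chosen for this comparison. Of the 50-base stretches of the whole Lyz2 transcript, 15.4% also occur in Lyz1, and 16.1% of those of Lyz1 occur in Lyz2. No other gene shared a stretch with them. How reads from these stretches were divided is not given in the sources used here, so part of either gene's signal could come from the other. Saa3 shared 1.78% of its stretches with Saa1, and the other 7 genes shared 0%.

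Lyz2, the lysozyme of macrophages and granulocytes, rose after ozone, while its neighbour Lyz1 was not called. In filtered air Lyz2 ran from -0.20 through a median of 0.029 to 0.24, and after ozone from 0.093 through 0.37 to 0.47. All but 1 of the ozone mice lay above every filtered-air mouse; the ranges met only through filtered-air mouse 4, at 0.24, and ozone mouse 6, at 0.093. The difference was 0.33 (SE 0.078, 95% CI 0.17 to 0.50, limma adjusted p = 0.0259), which is 1.26-fold if read as a log2 fold change. Without filtered-air mouse 4 it was 0.39 (limma adjusted p = 0.00843) and the groups no longer overlapped. When single mice were left out, 6 of 12 fits no longer called it, all in the same direction, with limma adjusted p-values up to 0.0627: those without filtered-air mouse 5 or 6 or ozone mouse 1, 2, 3 or 4. Quantile normalization also ended the call (0.31, limma adjusted p = 0.135).

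Lyz1, known as the lysozyme of intestinal Paneth cells and also expressed in lung, ran from -0.12 through -0.016 to 0.18 in filtered air and from -0.014 through 0.064 to 0.24 after ozone. The ranges overlapped across most of their width. The difference was 0.09 (SE 0.056, 95% CI -0.029 to 0.21, limma adjusted p = 0.469). It was 0.056 without ozone mouse 4, and 0.16 in batch 1 and 0.022 in batch 2. To compare the 2 lysozymes directly, a pair formed after the values had been seen, Lyz1 was subtracted from Lyz2 in each mouse. This excess of Lyz2 ran from -0.13 to 0.10 in filtered air and from 0.11 to 0.35 after ozone, so the groups did not overlap. It was 0.24 higher after ozone (SE 0.049; two-sided exact permutation test with n = 6 per group, p = 0.00216, the smallest that 924 assignments allow, and 0.00289 adjusted over 4 such pairs). The difference was 0.24 in batch 1 and 0.25 in batch 2. Since differences are compressed for genes with few reads, a lower read number of Lyz1 would also make its difference smaller, and this was not tested.

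**Figure D1:**
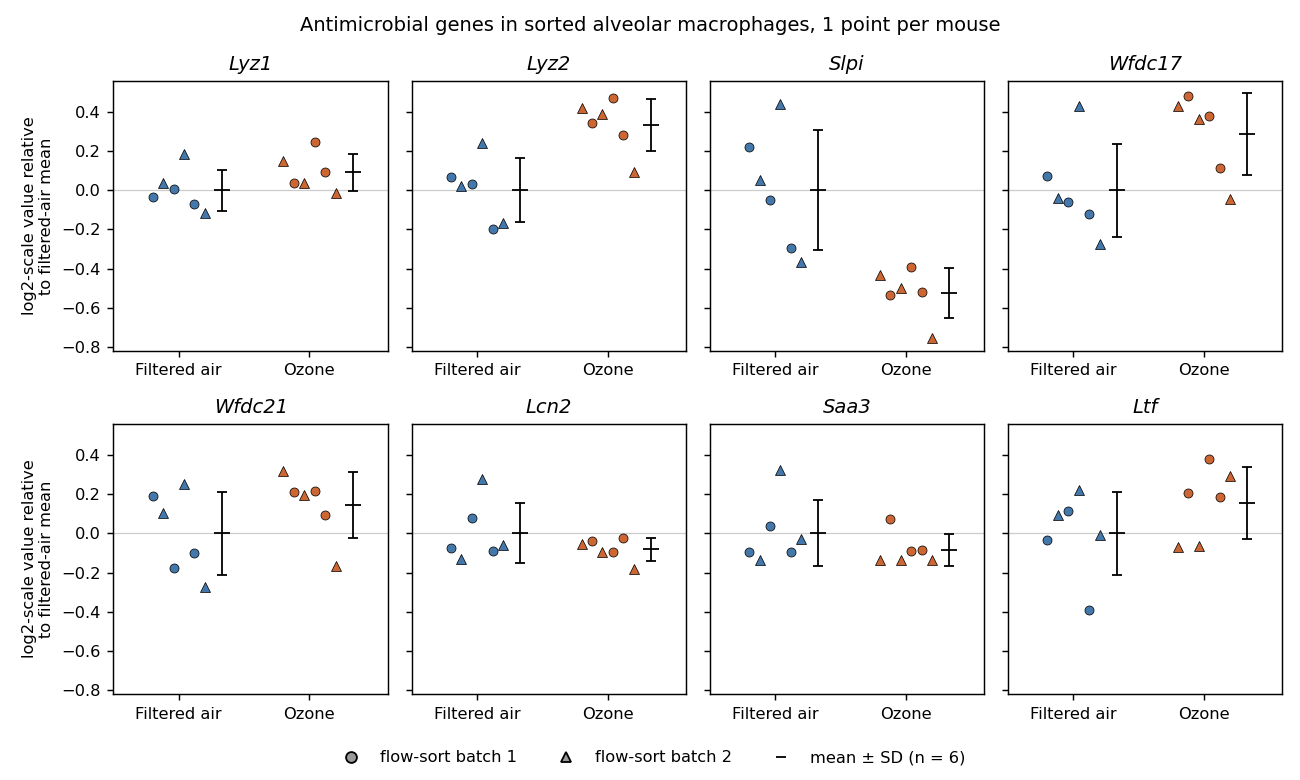
Values of the 8 tested antimicrobial genes in each of the 12 mice (y axis, log2-scale value relative to the filtered-air mean), circles for flow-sort batch 1 and triangles for batch 2, with group mean ± SD (n = 6) beside the points. The ozone mice lie below every filtered-air mouse in Slpi, and filtered-air mouse 4 is the highest blue point in each panel.

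Of the WAP genes Slpi, Wfdc17 and Wfdc21, Slpi fell and the others were not called. Slpi (2:164354070-164389095, minus strand, GRCm38) encodes the secretory leukocyte protease inhibitor, which blocks neutrophil elastase. It ran from -0.37 through 0.0013 to 0.44 in filtered air and from -0.76 through -0.51 to -0.39 after ozone. All 6 ozone mice lay below all 6 filtered-air mice. Slpi fell by 0.52 (SE 0.117, 95% CI of the difference -0.77 to -0.27, limma adjusted p = 0.0206), which is 1.44-fold if read as a log2 fold change. Its spread was wider in filtered air (SD 0.306, n = 6) than after ozone (SD 0.127, n = 6). Without filtered-air mouse 4 the difference was -0.43 (limma adjusted p = 0.0243) and the groups did not overlap. Slpi missed the threshold when filtered-air mouse 1 was left out (-0.47, limma adjusted p = 0.0555). It also missed it with a prior variance that follows the mean (limma adjusted p = 0.053) and after quantile normalization (-0.40, limma adjusted p = 0.246).

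Wfdc17 (11:83703991-83706268, plus strand, GRCm38) encodes a WAP protein known from activated macrophages and microglia. It ran from -0.27 through -0.05 to 0.43 in filtered air and from -0.047 through 0.37 to 0.48 after ozone. Of the ozone mice, 4 lay at 0.36 or above, and among filtered-air mice only mouse 4 did. The difference was 0.29 (SE 0.112, limma adjusted p = 0.193, unadjusted p = 0.0221), short of the threshold. Without filtered-air mouse 4 it was 0.38 and passed (SE 0.089, limma adjusted p = 0.0301); it also passed with RNA integrity number as a covariate (0.33, adjusted p = 0.0444). Wfdc21 (11:83746940-83752642, plus strand, GRCm38), a small WAP protein encoded 40671 bases further along, ran from -0.27 through 0.0038 to 0.25 and from -0.17 through 0.20 to 0.32. Its difference was 0.14 (SE 0.097, 95% CI -0.063 to 0.35, limma adjusted p = 0.516), with 5 of 6 ozone mice above the filtered-air median. Without filtered-air mouse 6 it was 0.085.

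The WAP genes were also compared within each mouse. Slpi was subtracted from Wfdc17 in each mouse, which gave -0.15 to 0.17 in filtered air and 0.63 to 1.02 after ozone. The gap between the groups was wider than the range of either. This distance was 0.81 larger after ozone (SE 0.074; two-sided exact permutation with n = 6 per group, p = 0.00216, adjusted p = 0.00289), and 0.81 in each batch taken alone. Wfdc21 minus Slpi was 0.67 larger (SE 0.066, n = 6 per group, exact permutation p = 0.00216, adjusted p = 0.00289), again without overlap. Wfdc17 minus Wfdc21 was 0.14 larger (SE 0.062, n = 6 per group, exact permutation p = 0.0519, adjusted p = 0.0519), which did not pass. Leaving out filtered-air mouse 3 or 4 or ozone mouse 5 brought it below the threshold, and with filtered-air mouse 4 left out the exact permutation p was 0.013. The pairs were formed within the lysozyme and WAP families after the values had been seen, and leaving out any 1 mouse kept the first 3 at an exact permutation p of at most 0.00433. With 3 mice against 3, the exact test cannot go below 0.1, so batches give values only.

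**Figure D2:**
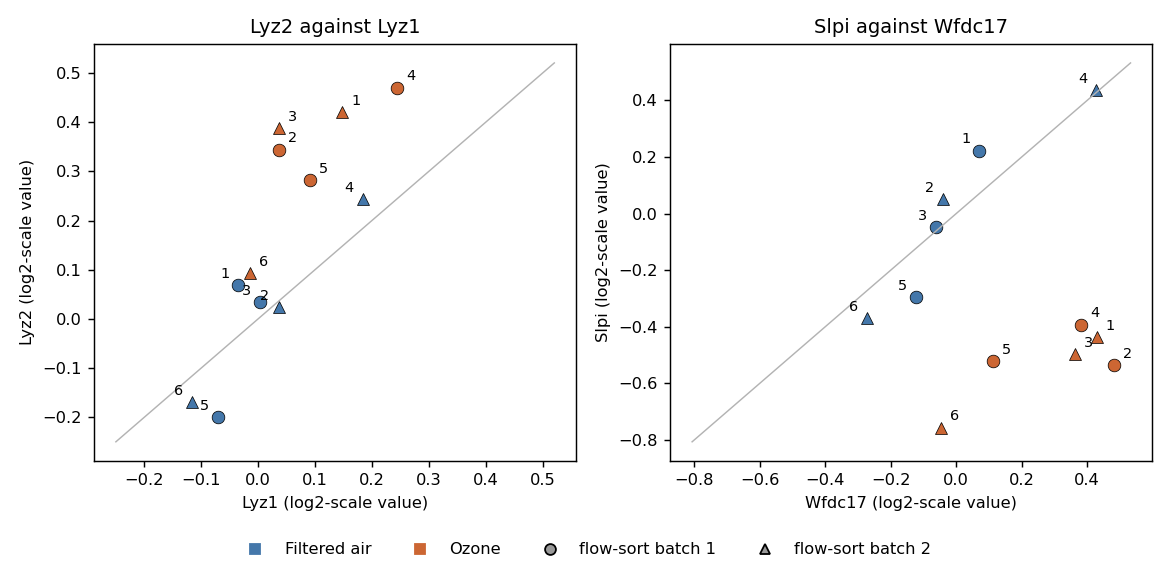
Lyz2 against Lyz1 (left) and Slpi against Wfdc17 (right) in the 12 mice, log2-scale values on both axes, blue for filtered air and orange for ozone, numbered by mouse, with the line of equal values in grey. The ozone mice are shifted to higher Lyz2 and to lower Slpi at a given level of the other gene.

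Lcn2 and Saa3, products of the acute-phase response, were not called. Lcn2 (2:32384633-32388252, minus strand, GRCm38) ran from -0.13 through -0.067 to 0.28 in filtered air and from -0.18 through -0.074 to -0.024 after ozone. The difference was -0.08 (SE 0.063, limma adjusted p = 0.595), and -0.019 without filtered-air mouse 4, which held the value of 0.28. Saa3 (7:46711998-46715700, minus strand, GRCm38), a serum amyloid A made by macrophages, ran from -0.14 through -0.062 to 0.32 and from -0.14 through -0.11 to 0.076. Its difference was -0.086 (SE 0.07, limma adjusted p = 0.62), and -0.014 without filtered-air mouse 4. Saa3 had few reads. In batch 2, where reads could be counted back, filtered-air mice 2, 4 and 6 had 0, 17.1 and 1.05 reads, and ozone mice 1, 3 and 6 had 0 each. A count of 0 allows up to 3 reads, so a difference between mice with 0 and mice with 1 read was not detectable at this depth.

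Among the granule proteins Ltf was not called, and Camp and Ngp had reads in too few mice to be tested. Ltf (9:111019271-111042767, plus strand, GRCm38) encodes lactoferrin, found in neutrophil granules and in airway secretions. It ran from -0.39 through 0.041 to 0.22 in filtered air and from -0.07 through 0.20 to 0.38 after ozone, a difference of 0.15 (SE 0.10, limma adjusted p = 0.498). Without filtered-air mouse 5, the lowest at -0.39, it was 0.068. The difference was 0.36 in batch 1, which holds that mouse, and -0.049 in batch 2. In limma's interaction test the difference between batches was -0.41 (SE 0.176, unadjusted p = 0.0377, adjusted p = 1.00). Camp (9:109847379-109849617, minus strand, GRCm38), the cathelicidin gene, was constant over all 12 mice, as a gene without reads is. Ngp (9:110419747-110423012, plus strand, GRCm38), the neutrophilic granule protein, had reads in 2 mice, both after ozone, with 4.99 reads in each, and none in the other 10. Neither was tested, and 8 of the 10 genes were. The neutrophil precursor marker Elane had reads in 0 mice, Mpo in 3 and Prtn3 in 4. Of the 11 listed precursor markers 4 were tested. Chil3, also listed as a monocyte marker, rose (0.25), which is 25% called, against 4.25% of all genes tested. Its call was lost in 7 of 12 fits without 1 mouse. Ms4a3 (0.073), Cebpe (-0.0065) and Gfi1 (-0.011) were not called. The mean level of the 4, to which Chil3 gave the largest difference, ran from -0.036 to 0.028 in filtered air and from 0.00032 to 0.16 after ozone. In that mean, 5 of the 6 ozone mice lay above every filtered-air mouse. The part of such cells in the Ngp reads was not tested. Of 14 tested markers of mature neutrophils, Cxcr2 (0.79) rose and Mxd1 (-0.38) and G0s2 (-0.26) fell, while S100a8 (0.085) and S100a9 (-0.015) were not called. That is 21.4% called, against 4.25% of all genes tested, and 11 of the 14 were lower in the mean after ozone, with a median of -0.11, where 52% of all genes were lower. The mean level of that list ran from -0.14 to 0.22 in filtered air and from -0.089 to -0.012 after ozone.

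Of the 8 tested genes, 2 were called at a limma adjusted p under 0.05, 1 higher and 1 lower. Among all 19633 genes tested, 4.25% were called, 2.41% higher and 1.84% lower. The median difference of the 8 was 0.12, against -0.0033 over all genes tested. In 1 of the 8, Slpi, the groups did not overlap, as in 3.53% of all genes. Between batches 0 of the 8 differed in limma's interaction test, which called 0 genes in all (0%) and gave 510 (2.6%) an unadjusted p under 0.05, Ltf among them. Without filtered-air mouse 4, 3 of the 8 were called, against 3.79% of all genes, and 2 of the 8, Lyz2 and Slpi, did not overlap between the groups, against 4.56%. That mouse was the highest filtered-air mouse in each of the 8, which need not hold over all genes, so these shares are not a like comparison. The 95% intervals of the genes that were not called reach from -0.24 in Saa3 to 0.53 in Wfdc17. In the 8 genes the filtered-air SD was larger than the ozone SD, as it was in 48.6% of all genes tested. Without filtered-air mouse 4 it was larger in 4 of the 8 (Slpi, Wfdc21, Lcn2 and Ltf) and in 45.1% of all genes.

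**Figure D3:**
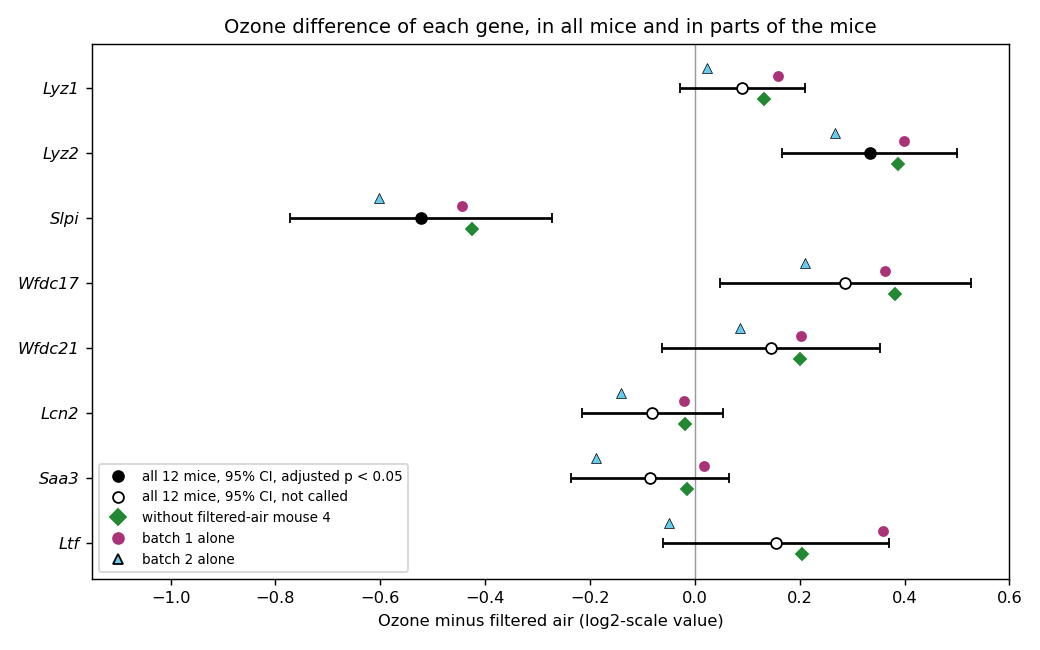
Ozone minus filtered air for each tested gene (x axis, log2-scale value), with the 95% confidence interval of the fit to 12 mice, filled where the adjusted p is under 0.05, and the value without filtered-air mouse 4 and in each flow-sort batch. Lyz2 and Slpi keep their side of 0 in every setting drawn, as do Lyz1, Wfdc17, Wfdc21 and Lcn2. Saa3 and Ltf change side between batches.

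Marker lists of other cells, each without the antimicrobial genes, were set beside these results. Of all genes tested 4.25% were called, so a list this short can hold 0 calls without differing from other genes. Reads were seen in all 12 mice for 13 of 13 alveolar type 2, 12 of 12 monocyte and 10 of 11 airway secretory markers. Macrophages can express some of these genes, and their abundance was not kept. The airway secretory list, the epithelium that makes Slpi, had mean levels of -0.26 to 0.17 in filtered air and -0.27 to 0.25 after ozone, and 0 of its 11 markers were called; 7 of the 11 had the higher mean after ozone, with a median of 0.014, and Scgb1a1 was at -0.16, Scgb3a1 at -0.14 and Scgb3a2 at 0.25. The alveolar type 2 list, whose cells make lysozyme, ran from -0.18 to 0.23 and from -0.12 to 0.11, with 0 of 13 called and Sftpc at 0.03. The monocyte list ran from -0.15 to 0.31 and from -0.15 to 0.062, with Chil3 called of 12. The B cell list ran from -0.22 to 0.31 and from -0.30 to -0.046, with 9 of 10 markers lower in the mean, a median of -0.19 and 0 called. In the endothelium list 8 of 9 were lower in the mean, with a median of -0.15 and 0 called, and levels ran from -0.28 to 0.31 and from -0.32 to 0.23. The ciliated epithelium list ran from -0.055 to 0.14 and from -0.13 to -0.00086. Of its 8 markers 1 was called (12.5%), Tppp3, which fell by 0.81 (limma adjusted p = 0.00158). In the mean 4 were higher and 4 lower, with a median of 0.039. The part of these cells in the antimicrobial results was not tested. In sorted bulk samples fewer cells of a type and less RNA per cell cannot be told apart.

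**Figure D4:**
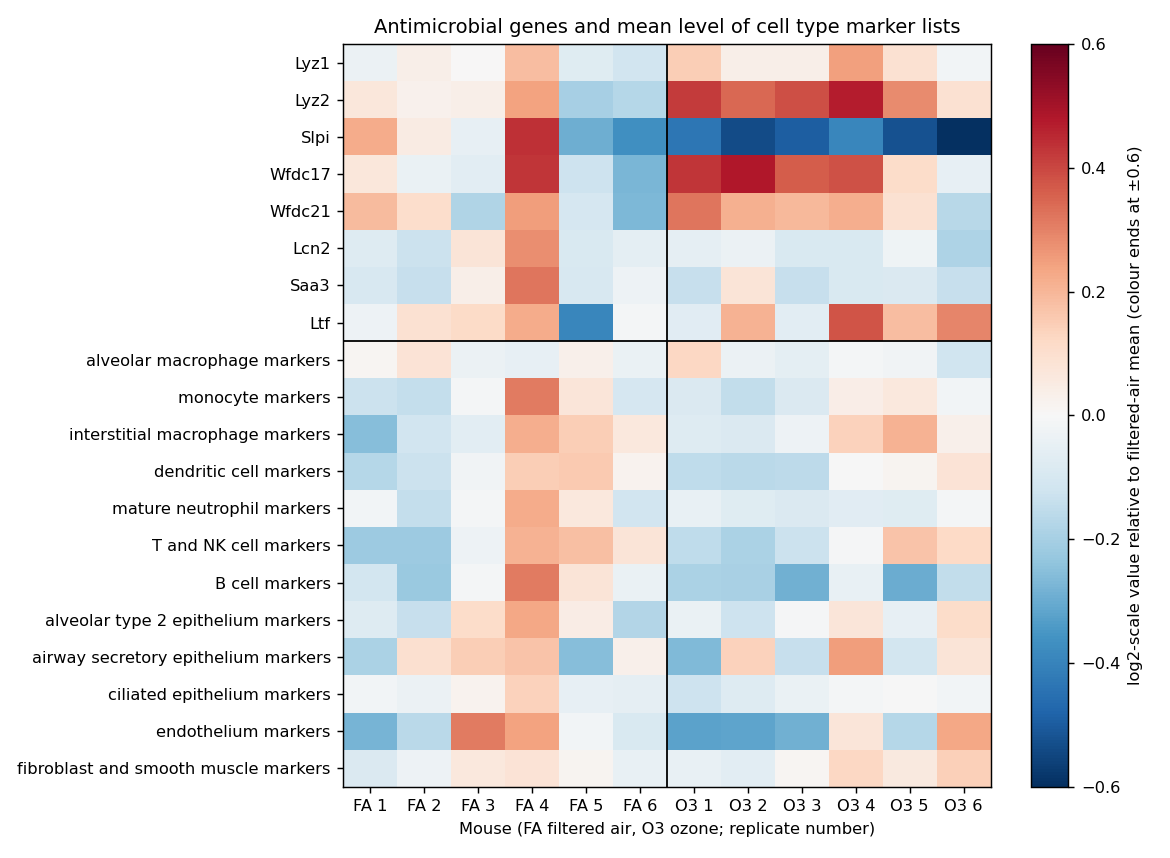
Log2-scale values of the 8 tested antimicrobial genes (upper rows) and mean level of 12 cell type marker lists (lower rows) in the 12 mice, with colour ending at ±0.6. Slpi is low in all 6 ozone columns and Lyz2 is high in 5, with ozone mouse 6 at 0.093, and the column of filtered-air mouse 4 is high in the antimicrobial genes and in most lists of other cells.

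Mice of the same group differed from each other in several of these genes at once. Deviations from the group mean over 12 mice were correlated for 28 pairs of genes, and 9 pairs passed by Pearson's r and 10 by Spearman's rho after adjustment over the pairs. All 28 pairs had a positive r, and 11 had an r over 0.5 without filtered-air mouse 4. The share that passes among pairs of other genes was not computed, so whether these pairs differ from others was not tested. Lyz2 and Slpi, which moved in opposite directions between the groups, deviated together from the group means (r = 0.93, permutation p = 0.00011, adjusted p = 0.00154; rho = 0.89, permutation p = 0.00018, adjusted p = 0.00252). Without the 2 mice farthest from the median in Lyz2, filtered-air mouse 5 and ozone mouse 6, r was still 0.93, and without filtered-air mouse 4 it was 0.90. Wfdc17 and Wfdc21 gave r = 0.88 (permutation p = 8e-05, adjusted p = 0.00154) and rho = 0.81 (permutation p = 0.00016, adjusted p = 0.00252), with r = 0.80 without 2 mice. Lyz1 and Lyz2 gave r = 0.84 (permutation p = 0.00134, adjusted p = 0.00469) and rho = 0.83 (permutation p = 0.0033, adjusted p = 0.013), with r = 0.74 without 2 mice; they can share reads. Lcn2 and Saa3 gave r = 0.91 (permutation p = 0.00084, adjusted p = 0.00392) and rho = 0.86 (permutation p = 0.0014, adjusted p = 0.0098), with r = 0.67 without 2 mice, 1 of them filtered-air mouse 4. The 6 pairs among Lyz2, Slpi, Wfdc17 and Wfdc21 passed by both measures, as did Lyz1 with Lyz2 and with Slpi; Lyz1 with Wfdc21 passed by rho only, and Ltf passed with no other gene.

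The upstream sequences of Slpi and Wfdc17, the WAP genes furthest apart in their differences, are shown, as bases that RefSeq (GRCm38.p6) gives before the transcription start and that lie outside the CCDS transcript of GENCODE. The Slpi bases lie in an intron of 1 of its 3 GENCODE transcripts, which starts further upstream. Capitals mark matches to C/EBP letters (TTNCNNAA) on either strand.
Slpi, chr2:164356508-164356757, minus strand: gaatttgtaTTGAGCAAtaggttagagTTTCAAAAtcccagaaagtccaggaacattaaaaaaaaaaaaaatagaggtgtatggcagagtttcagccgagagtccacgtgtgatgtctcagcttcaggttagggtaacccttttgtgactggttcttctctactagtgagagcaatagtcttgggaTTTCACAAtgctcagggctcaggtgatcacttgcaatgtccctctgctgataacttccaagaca
Wfdc17, chr11:83703806-83703990, plus strand: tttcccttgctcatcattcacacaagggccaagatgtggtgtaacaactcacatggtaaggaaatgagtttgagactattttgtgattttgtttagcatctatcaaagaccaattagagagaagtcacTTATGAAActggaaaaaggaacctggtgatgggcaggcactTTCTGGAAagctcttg
Of the 10 genes, 9 had such a window. Over the 250 bases before the start, C/EBP letters were found in 8 of the 9 and in 36.8% of all 32851 windows. PU.1 letters (GAGGAA) were found in 3 of 9, against 23.3%. The NF-kB consensus was found in 0 of 9, against 7.25%. The letters TGANTCA (AP-1) and TTCNNNGAA (STAT) were found in 0 of 9, against 6.75% and 7.02%. The Slpi matches lie 241, 223 and 64 bases before the start, the Wfdc17 matches 122 and 81 bases before it, with a PU.1 match at 39 outside the bases shown. The match of Lyz2 begins 55 bases before its start.

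Other antimicrobial and acute-phase genes showed no common direction. Of 45 listed, 31 were tested, 1 rose and 2 fell (9.68% called, against 4.25% of all genes tested), with a median difference of -0.01. Lrg1, a leucine-rich glycoprotein of the acute phase, rose by 0.96 (SE 0.141, limma adjusted p = 0.00193), but was not called with a prior variance that follows the mean (limma adjusted p = 0.545). Rnase4, a secreted ribonuclease, fell by 0.28 (SE 0.059, limma adjusted p = 0.0149). Ear1, an eosinophil-associated ribonuclease with close relatives that can share reads, fell by 0.28 (limma adjusted p = 0.0358), a call that 8 of 12 fits without 1 mouse did not make. Further WAP genes were not called: Wfdc2 was at 0.07, Wfdc3 at 0.13 and Wfdc18 at 0.012. Of the secreted liver-type amyloids Saa1, Saa2 and Saa4, no reads were seen in any of the 12 mice. Among 19 tested granule protein genes 1 rose, Chil3 at 0.25 (limma adjusted p = 0.032), whose call was lost in 7 of 12 such fits and which has close relatives. That is 5.26% called, and the median was 0.018.

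Of 42 tested regulators of antimicrobial genes, 3 rose and 4 fell (16.7% called, against 4.25% of all genes), with a median of 0.0015. Fos, a subunit of AP-1, rose by 0.57 (SE 0.118, limma adjusted p = 0.0136; 0.0517 with a prior variance that follows the mean). The receptors Tnfrsf1b for TNF and Il17ra for interleukin 17 rose by 0.23 (limma adjusted p = 0.00985) and 0.22 (limma adjusted p = 0.0122). The bacterial lipoprotein receptor Tlr2 fell by 0.26 (limma adjusted p = 0.0225), its adaptor Myd88 by 0.15 (limma adjusted p = 0.046), Stat3 by 0.17 (limma adjusted p = 0.0484) and Il10ra by 0.18 (limma adjusted p = 0.0472). These 4 calls were lost in 4, 10, 11 and 10 of the 12 fits without 1 mouse. The transcription factors Cebpb (0.099), Spi1, which encodes PU.1 (0.02), and Nfkbiz (0.047) were not called.

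Among 20 tested receptors and partners of the secreted proteins, 2 rose and 2 fell (20% called, against 4.25% of all genes), with a median of -0.019. Grn, which encodes progranulin, a protein that SLPI protects from elastase, rose by 0.25 (SE 0.035, limma adjusted p = 0.0016), from -0.092 to 0.056 in filtered air to between 0.23 and 0.27 after ozone. Cd36, a scavenger receptor that can bind serum amyloid A, fell by 0.46 (SE 0.051, limma adjusted p = 0.000402). The groups did not overlap in either gene. P2rx7, an ATP-gated channel, rose by 0.18 (limma adjusted p = 0.0293), which 8 of 12 fits without 1 mouse did not call. The other gene that fell was Tlr2, given above. The lipocalin receptor Slc22a17 (-0.015) was not called. Of the 14 genes called in the 4 lists, 3 were still called after quantile normalization (Lrg1, Cd36 and Grn), and 8 with a prior variance that follows the mean, where Lrg1, Fos, Ear1, Stat3, Il10ra and Myd88 were not. Cd36 and Grn were called under both.

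The genes whose deviations from the group means over the 12 mice were most like those of each antimicrobial gene were listed by Pearson's r among all genes tested, as a description, the highest of many. For Lyz2 they were 2610528A11Rik, S100a1 and Psap (r = 0.97, 0.97 and 0.96). For Slpi they were Ptgfrn, Tuba1a and Il1rl2 (0.96, 0.96 and 0.95), and for Wfdc17 Qpct, Rnf128 and Aig1 (0.95, 0.95 and 0.94). For Wfdc21 they were Adam9, Agfg1 and Pnp (0.98, 0.96 and 0.95), and for Lyz1 Slc44a1, Mgmt and Plpp1 (0.96, 0.95 and 0.94). For Lcn2 they were Exoc3l4, Cux2 and D930028M14Rik (0.94 each), for Saa3 F5, Spata13 and Gpr65 (0.94, 0.94 and 0.93), and for Ltf 4930404A12Rik, Plekhh2 and 6030400A10Rik (0.96, 0.96 and 0.94). Of these genes, Psap, the precursor of the lysosomal saposins, rose by 0.41 between the groups (limma adjusted p = 0.000402) and D930028M14Rik fell by 0.15 (limma adjusted p = 0.0229); the others were not called.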

How the data were processed

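The deposited table holds 1 column per mouse. The deposited log2 values were variance-stabilized and corrected for batch by the authors, as its name states. Per the submitters' processing notes, mm10, cutadapt, STAR 2.7.7a, Salmon 1.5.2, DESeq2 1.26.0, R 3.6.0 and limma 3.42.2 were used; the annotation is not given in the sources used here. The filtered-air mean and the difference between batch means were 0 in every gene. Mice without reads shared the lowest value of their batch (tolerance 1e-06). Genes with at least 6 of 12 mice above it were kept, 19633 of the 25444 that were not constant. Where a batch held such mice, reads were counted back by inverting an inverse hyperbolic sine curve with the size of 1 read in that library; 79.4% to 85.1% of low values lay within 0.1 read of a whole number, and total depth is unknown.

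The group difference was fitted with limma 3.58.1 (R 4.3.3), a term for flow-sort batch and a constant prior variance. Two-sided p-values were Benjamini-Hochberg adjusted over all genes kept, at a threshold of 0.05. In simulated data with 200 of 19633 genes changed, 81% of changes of 0.3 and 99% of changes of 0.6 were recovered, with 9 false calls. The simulated noise was independent between genes, without deviations that several genes of a mouse share. The changed genes were drawn from all genes kept, so these shares need not hold for the antimicrobial genes. Within-family pairs were compared by exact permutation, and correlations by 100000 permutations within groups. Named were all 10 genes, the called genes of 4 pathway lists, the first 3 markers of a cell type where useful, and the 3 most alike genes; Cebpb, Spi1, Nfkbiz, Slc22a17 and the other WAP genes were added after their values were seen. An NF-kB pattern with fewer fixed bases, searched first, matched 2 of 9 upstream windows and 45.8% of all. The members and lists were chosen with earlier results of these data known. Alternatives were the filter, prior variance, covariates, scaling, single batches, the replicate block and leaving out each mouse.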

Additional observations from a re-analysis of the deposited data

Results flagged for a closer look

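Across 60 combinations of group and measure, 2 had an extreme mouse beyond Dixon's 95% critical value, where chance would give about 3, or 1 in 20. Ozone mouse 2 stood apart in Saa3, at 0.076, with the next ozone mouse at -0.087 (ratio of gap to range 0.764). Filtered-air mouse 4 stood apart in the mean level of the other antimicrobial and acute-phase genes, at 0.13, with the next at 0.02. Ngp, which was not tested, had reads in ozone mice 3 and 4, at 0.22 and 0.25, and in 0 of the 6 filtered-air mice.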

How the results depend on the processing

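The antimicrobial genes called, 2 of 8, were 2 or 3 with no filter, with the stricter filter, with the robust fit, without batch and with RNA integrity number as covariate. They were 1 with the variance trend, where Lyz2 alone passed, and 0 after quantile normalization, in batch 1 and in batch 2. The 12 fits that left out 1 mouse gave 1 to 3. All genes called, 834, were 171 after quantile normalization, 90 in batch 1 and 0 in batch 2, where fewer mice were used (limma, with 0 of the 8 antimicrobial genes in either), and 538 to 751 without single mice. Leaving out filtered-air mouse 1 gave the 538. Of the 834 genes 473 were higher, and of the 90 in batch 1, 71 were higher. The interaction with batch gave 0 genes in each fit without 1 mouse. Of 175 alternative values of the 8 genes, 156 kept direction and call, 14 lost a call, 3 gained one, all of Wfdc17, and 2 changed sign without a call: Saa3 in batch 1 (0.017) and Ltf in batch 2 (-0.049). The cause was not tested.

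Both groups carry replicate numbers 1 to 6, which name different animals, so the mice were not treated as paired. Deviations of same-numbered mice correlated between -0.0026 and 0.28, over 0.1 in 4 of 6, and a fit with a replicate block was run beside the main one. The fit with the block called 853 genes, 686 of which the fit without it also called. It called 3 antimicrobial genes: Lyz2 (limma adjusted p = 0.0032), Slpi (limma adjusted p = 0.00366) and Wfdc17 (0.29, limma adjusted p = 0.0362). Its interaction test gave 1 gene, Eps8l1. Few reads limit Saa3, Ngp and Camp, and lost abundance limits every fold.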
